A study of Homo sapiens with 6 samples.

Results

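A set of 2534 short genomic regions, here called the members, held a binding site of monomeric hnRNP A1 in both replicate libraries and was listed in no library of the other protein bands. They were selected by position. Clusters (called binding sites) of the 2 libraries of the monomer band were merged where they overlapped by at least 1 nt on the same strand, and a merged region was kept when both libraries had a cluster in it and no cluster of the other bands overlapped it on that strand. The libraries of the monomer band covered 10574 regions, of which 3328 (31.5%) held a cluster of both replicates. Of these 3328 recurrent regions, 2534 (76.1%) had no overlap with the other bands and 794 had one. The overlaps chose the regions, so these shares are a description and nothing was tested on them.

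The study used PAR-CLIP, a method of cross-linking and immunoprecipitation with a photoactivatable nucleoside, in HEK293T cells, a human embryonic kidney line, transiently transfected with plasmids for myc-tagged hnRNP A1. All cells were given 4-thiouridine (4-SU) before cross-linking with ultraviolet light, and complexes were precipitated with a rabbit antibody to the myc tag. The 3 bands were monomeric WT hnRNP A1 (A1), a slower WT band that the labels call dimeric (A1-HMW) and monomeric R75D/R88D hnRNP A1 (A1dm), with 2 libraries each, described as independent experiments, and 6 in all. The tagged protein was added to what the cells make themselves, and the promoter of the plasmids is not given in the sources used here. The A1 libraries listed 5805 and 8100 clusters, the A1-HMW libraries 671 and 865, and the A1dm libraries 232 and 596, all called by the authors. The deposited lists carry no read numbers, and the clusters of another caller that the study's supplement describes with read numbers were not analysed here. The depth behind these lists is therefore unknown, and a region without an A1-HMW or A1dm cluster may hold reads too few to be called. The part that these shorter lists play in the selection was not tested.

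HnRNP A1 is a mainly nuclear RNA binding protein that coats nascent transcripts and is best known as a repressor of splice sites. A pair of RNA recognition motifs at its amino terminus contacts RNA, with a known preference for UAGG and related AG-containing sequences. In PAR-CLIP, 4-SU is built into RNA in place of uridine, is cross-linked to the bound protein, and is then read as C where the genome has T.

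The selected regions were nearly pure runs of A and G. To show what such a region looks like, the member with the longest unbroken run of purines is given here for each of the 8 genes that held most of them, all of them in introns. Sequences are those of the reference genome hg19 on the strand of the RNA, written 5′ to 3′ with T for U, and the capitals mark the longest run of purines.
TNRC6B, chr22:40526311-40526339, plus strand: GGAGGAGGAAAGAAAGAAAGGAAGtgggt
DTNA, chr18:32173918-32173944, plus strand: AAAAAAAGGAAAAAGGAGAGGAAAGGt
SRGAP3, chr3:9360100-9360125, minus strand: AGGGGGAAGGAGGAAAGAGGAGGtgt
RAD51B, chr14:68293317-68293341, plus strand: GAAGAAGGGGAGAAGGAAGGAAtgt
NCAM1, chr11:112993788-112993814, plus strand: aggtGGAGGAAGGAAGAGGGGAAGAAt
ERC2, chr3:55901181-55901207, minus strand: aggtGGGAAGGAAGGAAAGGAAGGGAc
AUTS2, chr7:69372778-69372804, plus strand: AAGAGAAGAAGGAAGAGAGAGGGtgga
UGGT2, chr13:96597614-96597641, minus strand: aattAGAAGGAGAGGGAGAAGGAGAAAt

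Across all members the longest run reached 30 nt. The member of CTNND1, the gene of the adhesion protein p120-catenin, ranked among the 5 longest with 28 nt.
CTNND1, chr11:57549432-57549461, plus strand: GGGAGGGGAAAAGAGAGAAAAAGAAGAAtg

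The pentamer TAGGG, the DNA spelling of the classical hnRNP A1 recognition element, was rare within the called limits of the members. It occurred in 63 of 2534, and the first 6 in alphabetical order of their genes are given with TAGGG in capitals. All 6 were intronic, and purines filled most of the rest of each region.
ADAMTS6, chr5:64734772-64734796, minus strand: gaggaTAGGGaagagaggagggagc
ANLN, chr7:36481556-36481582, plus strand: gaaggatTAGGGgaggaggaaaaaggt
APTX, chr9:33009439-33009461, minus strand: gaatTAGGGagaaaagaaagaat
CAMTA1, chr1:6883242-6883269, plus strand: TAGGGgaagagagaagggaggtaaaggc
CEP170, chr1:243381451-243381480, minus strand: gaaaggaaaggtTAGGGaaggagaggaggc
CHN2, chr7:29202416-29202441, plus strand: aaaggtTAGGGaagaggagggagagc

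The following members lay in exons. FYN encodes a protein kinase, CHD8 a chromatin remodeler, CUL5 a cullin of ubiquitin ligases and GATAD2B a subunit of the NuRD complex. The member in FYN was in the 5′ untranslated region and the others were in coding sequence, and capitals again mark the longest run of purines. These exonic sites were also rich in purines, but their runs of 14 to 16 nt were shorter than the median of 19 nt over all members. The make-up of exonic and intronic members was not compared.
CHD8, chr14:21861638-21861659, minus strand: gaggatGAGAAGGAAGAGAAGc
CUL5, chr11:107969196-107969220, plus strand: agaaaggatGAGAGAAGAAGAGAAt
FYN, chr6:112080286-112080308, minus strand: aaggagctGAGAGAGGGGGAGAc
GATAD2B, chr1:153762488-153762517, minus strand: ggaagaggaaggtGGAGAGGAGAGAGAGAt

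Over the 2534 members, 43.9% of the bases were A and 46.8% were G, so that 90.7% were purines. T made up 6.94% and C 2.32%. In windows of the same length placed 200 nt upstream and downstream on the same strand, purines made up 51.8 and 51.5% of the bases. A run of at least 12 purines was present in 2522 members (99.5%, 95% Wilson interval 99.2 to 99.7), against 2.88 and 2.29% of the upstream and downstream windows. The median longest run was 19 nt, and 46.4% of the members had a run of 20 nt or more. Only 12 members had no run of 12 purines. The rule did not use the sequence, although a cluster needs a T to be called, so the presence of T is not a finding.

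The most frequent hexamers were GAGGAA, in 36.4% of the members, and AGGAAG, in 36.3%, followed by GAAGGA and by AGAGGA with 30.7%. These hexamers overlap each other in sequence and are not separate observations. GAGGAA was found in 1.26 and 1.30% of the upstream and downstream windows. TAGGG was present in 2.49% of the members (95% Wilson interval 1.95 to 3.17), against 1.93 and 1.74% of the upstream and downstream windows. With 10 nt added at both ends of each region, 6.12% of the members held TAGGG and 37.4% held GAGGAA. The windows beside them were not lengthened in the same way, so these shares have no matching background. The trimer TAG was less frequent inside the members than beside them, with 9.23% against 27.9 and 27.4%. The base before the region was T in 50.4% of the members and the last base was T in 53.5%. A TAG that crosses such an edge was not counted, and the part of these edges in the difference was not tested. These motifs were searched on the RNA strand alone. A match to letters is not evidence of contact, and these windows differ from the members in base composition.

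**Figure D1:**
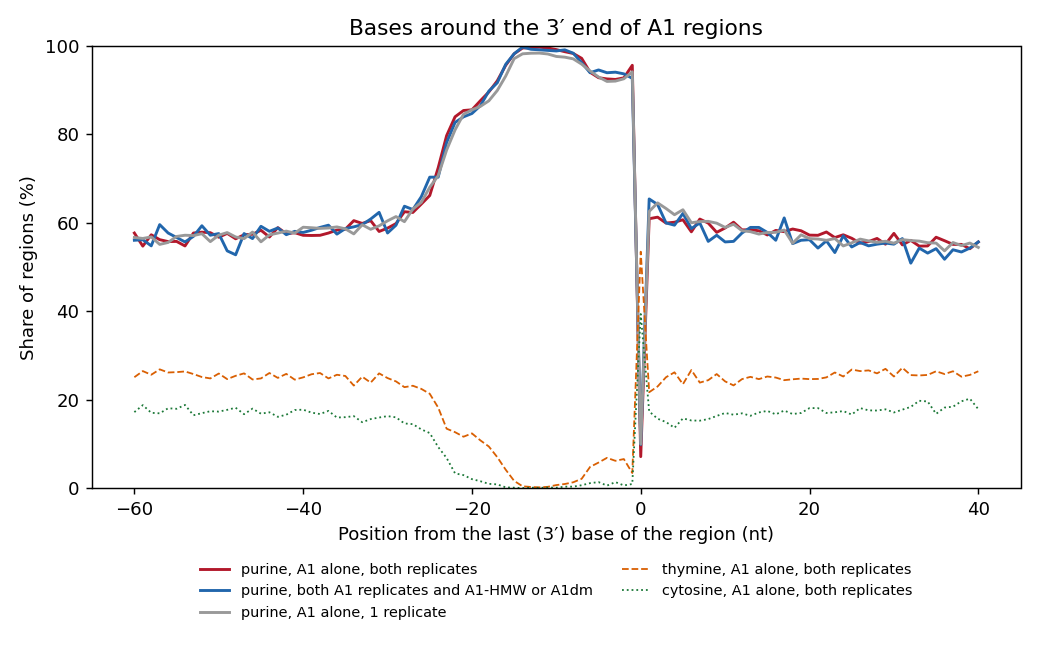
Share of regions (%) with a purine, T or C at each position from 60 nt before to 40 nt after the last (3′) base of the region, for members, for recurrent regions shared with A1-HMW or A1dm, and for A1 regions of 1 replicate. The purine share of the members is 95.6% at the base before the end, 7.14% at the end and 60.9% at the next base, and the 3 purine curves follow each other.

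The regions stopped at a pyrimidine. The last base was T in 53.5% of the members and C in 39.4%, and a purine in 7.14%. The base before the region was C or T in 79.1% of the members (95% Wilson interval 77.5 to 80.7), against 64.0% of the shared regions (60.6 to 67.3) and 76.4% of the A1 regions of 1 replicate, a comparison that was not among those tested. Inside, the purine share was at least 99% from 14 to 10 nt before the end. A total of 40.9% of the members had 1 T, 43.3% had 2 and 15.7% had 3 or more. The nuclease that trimmed the RNA is not given in the sources used here, and its part in the bases at the ends was not tested.

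Of the sequence features, the 3 that were tested (a run of 12 purines, GAGGAA and TAGGG) did not differ past the threshold between the members and the recurrent regions that were shared with A1-HMW or A1dm. Of the 792 shared regions with a reference sequence, 98.9% had a run of 12 purines, a difference of 0.663 percentage points (95% interval 0.0202 to 1.69; adjusted p = 0.12, two-sided Fisher's exact test). Without A1-HMW replicate 2 this difference was 1.07 points and passed the threshold of 0.05 (adjusted p = 0.024, Fisher's exact test), as did the 1.90 points within replicate number 1 alone. GAGGAA was in 38.4% of the shared regions, a difference of -2.00 points (95% interval -5.90 to 1.83; adjusted p = 0.401, Fisher's exact test), and within replicate number 2 alone it was -4.77 points and passed the threshold. TAGGG was in 2.90%, a difference of -0.418 points (95% interval -1.93 to 0.761; adjusted p = 0.587, Fisher's exact test). Purines made up 90.5% of the bases of the shared regions. In this and the following tests, the 9 comparisons of members with shared regions were adjusted together by the Benjamini-Hochberg method. Their units are regions of these libraries and not replicates, so the p-values and intervals cover counting error only. Members and shared regions both come from the same 2 A1 libraries, so no permutation of libraries corresponds to this contrast. Its variation between experiments was not tested.

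The replicates placed the members to the nucleotide in many cases, although the rule asked for an overlap of only 1 nt. Of the 2533 members with 1 cluster in each replicate, 1135 (44.8%, 95% Wilson interval 42.9 to 46.8) had the same start and the same end in both. The 3′ end was the same in 71.9% and the 5′ end in 59.5%, while 13.4% shared neither end. The clusters were 24 nt wide at the median in both replicates, and the widest were 51 nt in replicate 1 and 62 nt in replicate 2. The replicates overlapped by at least 20 nt in 92.9% of the members and by less than 10 nt in only 6. At the edge of the selection, no member had an A1-HMW or A1dm cluster within 10 nt, and the smallest overlap that kept a recurrent region out was 8 nt, with a median of 24 nt. Within 100 nt, 8 members had such a cluster, and within 10000 nt, 169 (6.67%) had one.

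**Figure D2:**
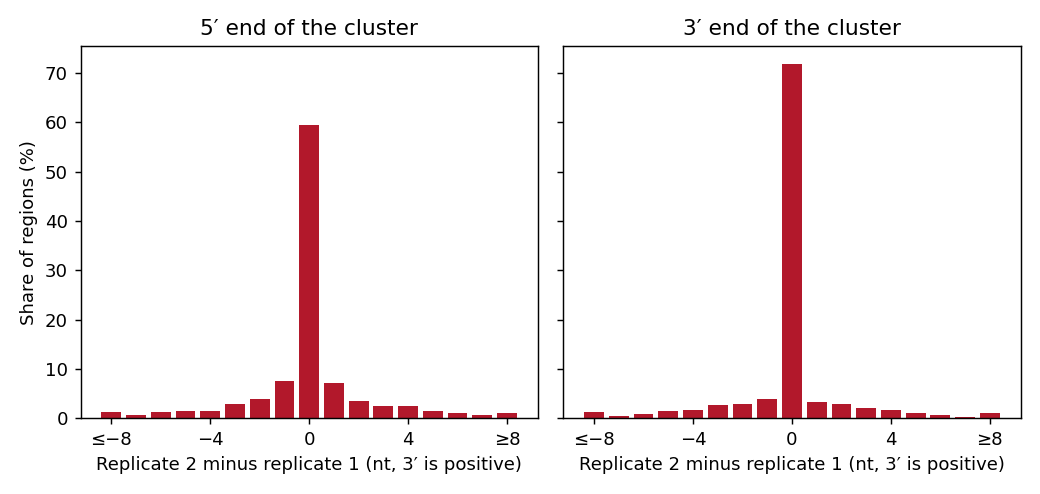
Position of the 5′ end (left) and of the 3′ end (right) of the replicate 2 cluster relative to the replicate 1 cluster (nt) for the 2533 members with 1 cluster in each replicate, with the bars giving the share of regions (%) and the outermost bars collecting larger offsets. The bar at 0 holds 59.5% of the 5′ ends and 71.9% of the 3′ ends.

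Most members lay in introns. On the GENCODE annotation of hg19, read on the strand of the cluster, 1656 of 2534 (65.4%, 95% Wilson interval 63.5 to 67.2) were intronic, 284 (11.2%) were in exons of protein-coding genes, 26 (1.03%) were in exons of long noncoding RNAs, 7 were in exons of other RNAs and 561 (22.1%) were intergenic. The intronic share of the shared regions was 64.4%, a difference of 0.994 points (95% interval -2.76 to 4.85; adjusted p = 0.609, Fisher's exact test). Members were less often exonic than shared regions, with 11.2 against 17.6%, a difference of -6.42 points (95% interval -9.46 to -3.62; adjusted p = 3.31e-05, Fisher's exact test). The exonic difference was -2.72 points with the annotation listed in the files, where 5.84% of the members were exonic, and -10.6 points when only A1-HMW or A1dm regions of both replicates excluded a region. With a library left out it ranged from -9.11 points (A1-HMW replicate 2) to -4.96 (A1dm replicate 2). The shared regions pool 541 that overlapped A1-HMW alone, 129 that overlapped A1dm alone and 124 that overlapped both. The members were not compared with each band separately. Intergenic places were more frequent among the members, with 22.1 against 15.9%, a difference of 6.27 points (95% interval 3.14 to 9.17; adjusted p = 3.24e-04, Fisher's exact test). That difference was 4.23 points with the annotation listed in the files, where 13.3% of the members were intergenic. It was 12.1 points when only A1-HMW or A1dm regions of both replicates excluded a region. With a library left out it ranged from 5.80 points (A1dm replicate 2) to 10.04 (A1 replicate 1). With intergenic regions left out of the denominator, 83.9% of the members were intronic, and the difference from the shared regions grew to 7.44 points (adjusted p = 1.01e-04, Fisher's exact test). Of the 6858 A1 regions of 1 replicate without overlap with the other bands, 8.97% were exonic and 28.3% intergenic. Both shares of the members thus lay between those of this part and those of the shared regions, which was not tested.

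**Figure D3:**
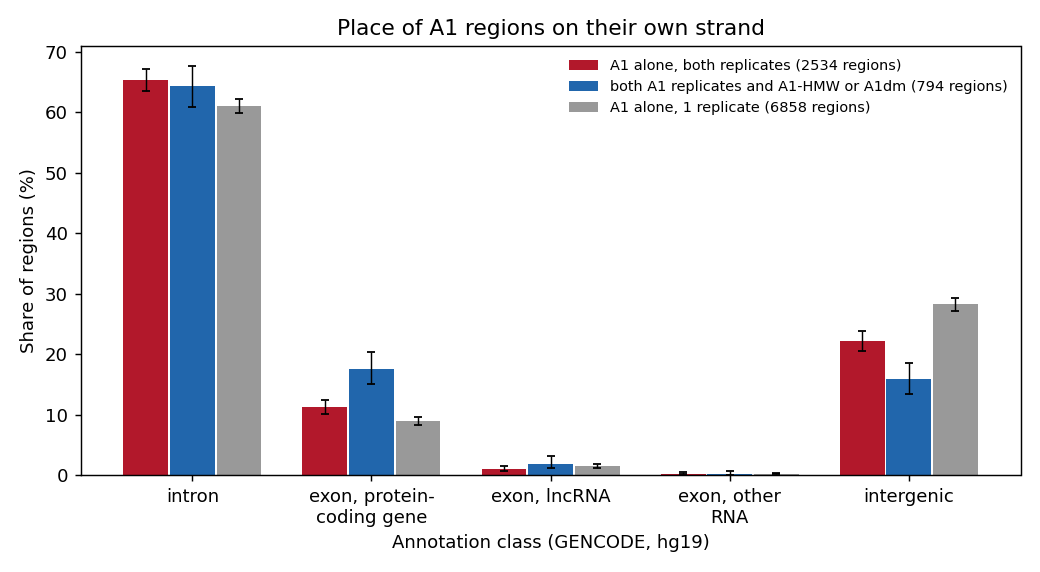
Share of regions (%) in each annotation class on their own strand for the 2534 members, the 794 recurrent regions shared with A1-HMW or A1dm and the 6858 A1 regions of 1 replicate, with bars giving 95% Wilson intervals. Introns hold 65.4% of the members, and the exonic share is 11.2% in the members and 17.6% in the shared regions.

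Of the 284 members in exons of protein-coding genes, 102 (35.9%) were in coding sequence, 70 (24.6%) in 3′ untranslated regions and 21 (7.39%) in 5′ untranslated regions. Another 31 were in an untranslated region of some isoforms, and 60 were in exons of transcripts without a reading frame. In the 1491 protein-coding genes that held members, exons made up 6.31% of the length. These genes had 21.3 members per Mb of exon and 7.59 per Mb of intron, which is a description, since both figures rest on genes chosen for having members. The exons of long noncoding RNAs with a member included those of FTX, a noncoding RNA of the X inactivation center, of KCNQ1OT1, which is transcribed from an imprinted locus, and of PVT1, named after their values were seen. Of the 561 intergenic members, 251 (44.7%) lay inside a gene on the other strand, and 254 (45.3%) lay within 10 kb downstream of a gene end on their own strand. Whether the latter belong to longer transcripts of those genes was not tested.

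The intronic members lay mostly in long introns, and the distances expected from random placement in these introns were not computed. The median distance to the nearest exon of the same gene was 2399 nt, against 1842 nt in the shared regions, and the introns that held them had a median length of 12446.5 nt, against 9267 nt. Of the intronic members, 202 of 1656 (12.2%) lay within 300 nt of an exon. The share was 15.9% in the shared regions, a difference of -3.65 points (95% interval -7.38 to -0.301; adjusted p = 0.0798, Fisher's exact test) that did not pass the threshold of 0.05. With 1000 nt in place of 300 nt the difference was -6.85 points and passed it (adjusted p = 0.00946, Fisher's exact test). At 300 nt it also passed without A1 replicate 1 (-4.70 points), A1 replicate 2 (-3.32) or A1dm replicate 2 (-4.63). The 5′ splice site was within 300 nt of 6.88% of the intronic members and the 3′ splice site of 6.40%. Where the canonical transcript gave an intron number, 472 of 1515 (31.2%) were in the first intron, which held on average 26.6% of the intron length of these genes. A total of 90.6% of the intronic members were in protein-coding genes.

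Members were farther from transcription starts than the shared regions. The files list for each cluster the distance to the nearest annotated start, on either strand and of any gene. The median distance was 5825 nt for the members, 4057 nt for the shared regions and 6712 nt for the A1 regions of 1 replicate. Within 1 kb of a start lay 403 members (15.9%), between 1 and 5 kb 773 (30.5%), between 5 and 50 kb 1254 (49.5%) and beyond 50 kb 104 (4.10%). The share within 5 kb was 46.4% of the members and 55.6% of the shared regions, a difference of -9.15 points (95% interval -13.1 to -5.16; adjusted p = 3.31e-05, Fisher's exact test). Among the A1 regions of 1 replicate it was 42.7%, so the members again lay between the other parts, which was not tested. Beyond 50 kb the shares were 4.10 and 2.78%, a difference of 1.33 points (95% interval -0.234 to 2.59; adjusted p = 0.163, Fisher's exact test). Without A1 replicate 1 (2.09 points) or A1 replicate 2 (2.22 points) this difference passed the threshold.

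**Figure D4:**
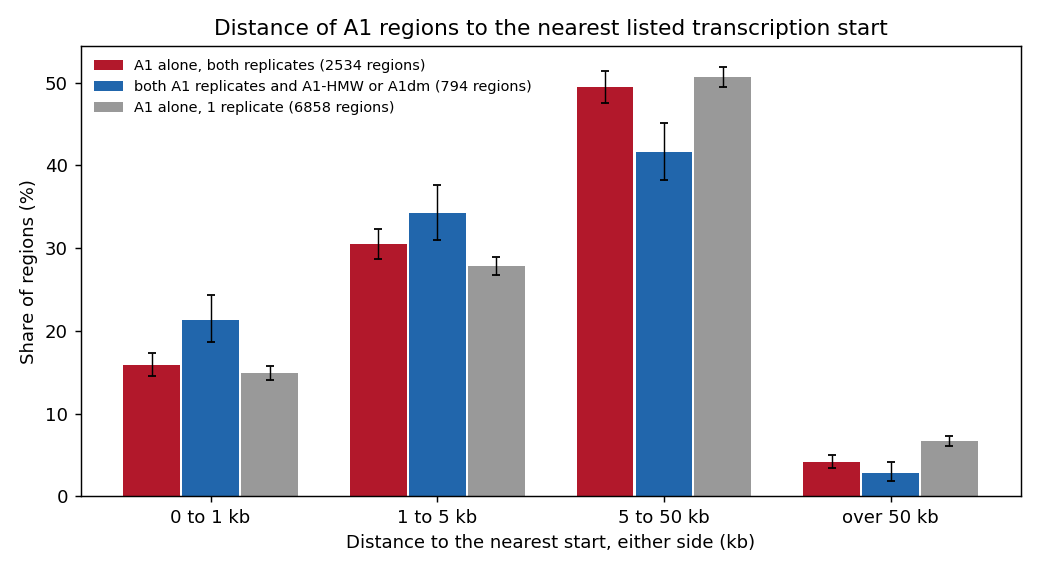
Share of regions (%) by distance to the nearest listed transcription start (kb) for members, recurrent regions shared with A1-HMW or A1dm, and A1 regions of 1 replicate, with bars giving 95% Wilson intervals. The members have 15.9% within 1 kb and 49.5% between 5 and 50 kb, and the shared regions have 21.3 and 41.7%.

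Because the nearest start need not belong to the gene that holds the region, the distance was also measured along the strand from the start of that gene. The median of the 1973 members in genes was then 36390 nt, against 27735 nt in the 667 shared regions in genes. Only 244 (12.4%) lay within 5 kb of the start of their own gene, and 785 (39.8%) lay beyond 50 kb. The shared regions had 17.4 and 32.2%. The genes that held members were long, with a median of 97363 nt over the members, against 70658 nt over the shared regions. Gene length and distance from the start move together, and these values were not tested.

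Members were spread over many genes. Of the 2640 recurrent regions in genes, 1973 (74.7%) were members, and they fell in 1655 genes, of which 1491 were protein-coding and 151 were long noncoding RNA genes. A total of 1415 genes held 1 member, 185 held 2 and 55 held 3 or more. In 1312 of the 1655 genes (79.3%) no A1-HMW or A1dm cluster was listed anywhere in the gene, while 260 also held A1-HMW clusters and 147 A1dm clusters. These genes were chosen for regions without such overlap, and the A1-HMW and A1dm lists are much shorter. The share over all genes with A1 regions was not computed, so nothing is read from this count. A total of 124 members were overlapped by more than 1 gene on their strand, and for these the assigned gene is uncertain.

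The genes with most members were TNRC6B and DTNA, with 7 each, all intronic. TNRC6B encodes a scaffold protein of microRNA silencing that binds Argonaute. Its members lay at up to 213 kb from the start of a gene of 291 kb. The A1 libraries listed 8 and 12 clusters in it, the A1-HMW libraries 0 and 1, and the A1dm libraries 1 and 0. DTNA encodes dystrobrevin alpha, a component of the dystrophin-associated complex. Its A1 clusters numbered 11 and 13, its A1-HMW clusters 1 and 1 and its A1dm clusters 0 and 3, so that the A1 counts stood above all others in both genes. The choice of genes by members fixes that direction.

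SRGAP3, a GTPase-activating protein of the Slit-Robo guidance pathway, and RAD51B, a gene of homologous recombination, held 6 members each. SRGAP3 had 8 and 11 A1 clusters, 2 and 0 A1-HMW clusters and no A1dm cluster. RAD51B had 11 and 6 A1 clusters and no cluster of the other bands. Of its 6 members, 5 were in intron 7, from 78.7 to 358 kb from the gene start, and the other was in intron 3.

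NCAM1, ERC2 and AUTS2 held 5 members each. NCAM1, which encodes the neural cell adhesion molecule, had all 5 in intron 3, with 7 and 6 A1 clusters, 1 and 1 A1-HMW clusters and no A1dm cluster. ERC2, which encodes a protein of the presynaptic active zone, had 6 and 8 A1 clusters and none of the other bands, and its members were spread from 111 to 815 kb from the start. AUTS2, a neurodevelopmental gene of 1195 kb, had 11 and 12 A1 clusters, no A1-HMW cluster and 1 and 0 A1dm clusters. Beside its 5 members it held 11 A1 regions of 1 replicate.

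UGGT2, TTC28 and CAMTA1 held 4 members each. UGGT2, an enzyme family member of glycoprotein folding control in the endoplasmic reticulum, had 4 and 4 A1 clusters that all belonged to members. TTC28 had 5 and 5 A1 clusters and none of the other bands, and 3 of its members were in intron 2. CAMTA1, a calmodulin-binding transcription activator, had 6 and 10 A1 clusters, 1 and 1 A1-HMW clusters and 0 and 1 A1dm clusters.

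SEMA6C and PARP6 were taken from the 45 genes with 3 members for having the most members per intron length, so that their shortness and density follow from that choice. SEMA6C, a transmembrane semaphorin gene of 14.9 kb, held 3 members, which lay 117, 139 and 255 nt from the nearest exon. It had 4 and 4 A1 clusters, 1 and 0 A1-HMW clusters and 0 and 1 A1dm clusters. PARP6, which encodes a mono-ADP-ribosyltransferase, held 3 members in 31.8 kb, of which 2 were in exons of transcripts without a reading frame. Both A1 libraries listed 3 clusters in PARP6, and the other bands listed none.

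**Figure D5:**
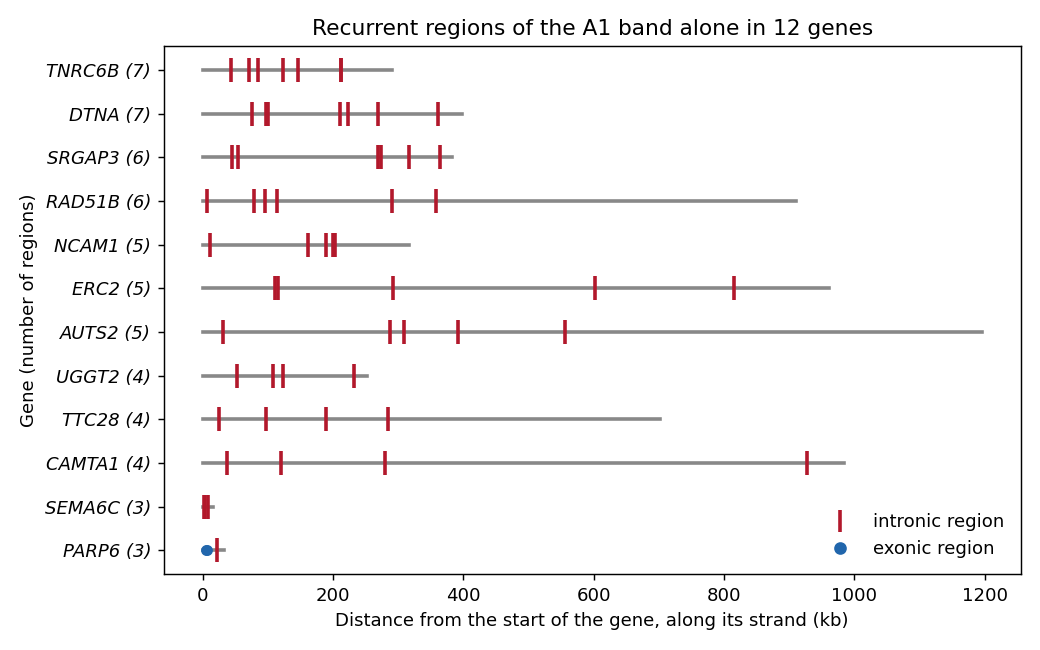
Position of the members along the 12 genes with most members, in kb from the gene start along its strand, with grey lines for the length of the gene, red ticks for intronic and blue points for exonic members. The members of ERC2 are spread from 111 to 815 kb, while those of SEMA6C and PARP6 sit within genes of 14.9 and 31.8 kb.

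A total of 13 pairs of neighbouring members were within 500 nt of each other. Among them, chosen after their positions were seen, were pairs in coding exons of PRRC2C (chr1:171501849-171501875 and chr1:171501888-171501914, plus strand) and of CALD1, which encodes the actin-binding protein caldesmon (chr7:134618466-134618489 and chr7:134618590-134618617, plus strand). The selection drops neighbours that are not members, and no matching count was made for other A1 regions, so nothing is read from this number.

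Gene groups were described by the number of their recurrent regions that were members, beside 74.7% over all recurrent regions in genes. The selection used these overlaps, so nothing is read from the shares. Among genes of DNA repair and checkpoint control, 29 of 38 recurrent regions were members, in 18 genes. Beside RAD51B they included FANCB and FANCC of the Fanconi anemia pathway and POLQ, a polymerase of end joining, with 2 intronic members each. Chromatin remodelers had 20 of 29, with 2 each in BAZ2B and RSF1 and 1 each in ARID1A and ARID1B, subunits of SWI/SNF complexes. Histone modifying enzymes had 13 of 19, with 2 each in the demethylase genes KDM4C and KDM6A and 1 each in EP300, an acetyltransferase gene, and HDAC7, a deacetylase gene.

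RNA binding protein genes were also among the sites. HnRNPs and related proteins had 10 of 20, with 3 in MSI2, 2 in TAF15 and 1 each in CELF2 and ELAVL1, and in these 4 genes all were intronic. Spliceosome and SR protein genes had 15 of 22, with 2 in CWC27 and 1 each in AQR, CWC22 and DDX46. Of these 15 members, 6 were exonic. Over all members in genes, 14.4% were in exons of protein-coding genes and 83.9% in introns. Nothing is read from the exonic or intronic counts of these lists. Translation factors had 5 of 7, all intronic, with 2 in EIF4G3 and 1 each in EIF2S1, EIF5B and GSPT1. Of 23 genes listed as known hnRNP A1 targets, only ACACA, the gene of acetyl-CoA carboxylase, held a member, and the list had 2 recurrent regions in all.

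Signaling kinases had 31 of 41, and FYN and IGF1R held 3 members each and ABL1 held 2. Of the members in FYN, 1 was exonic and is shown above. Ubiquitin ligases and cullins had 24 of 34, with 3 in UBE3C and 2 each in HUWE1, RNF169 and UBR1. Cell adhesion and axon guidance genes had 25 of 32, all intronic, led by SRGAP3 and NCAM1 and with 2 each in EFNA5 and LRP1B. Genes at common fragile sites, which are very long and replicate late, had 22 of 25, all intronic, with RAD51B, AUTS2, FHIT (3 members) and LRP1B first. Nuclear long noncoding RNAs had 12 of 17, with 2 each in DLEU1, LINC-PINT, MIR17HG and PVT1. Some genes, such as RAD51B, stand in more than 1 list. Reads from near-identical gene copies could be split or lost by the authors' mapping, which these lists do not show.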

How the data were processed

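PAR-CLIP libraries of the A1, A1-HMW and A1dm bands, 2 each, were analyzed from the lists of clusters that the authors deposited. Per the methods, adapters were removed with BBduk, ribosomal RNA was filtered off and STAR mapped the reads. Bowtie and hg19 are named in the submitters' processing notes. The file headers name wavClusteR clusters annotated by HOMER, while PARalyzer also appears in the methods. Versions are not given in the sources used here. The deposited values used were positions, strand and the authors' distance to the nearest start, which ignores strand. The deposited score was 0 in every line, so no count test was run. The supplement's clusters with read numbers, from PARalyzer, were not used here.

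The start was taken as the listed start minus 1. Regions were placed on GENCODE 44 lifted to the same build, with exons ranked over introns and protein-coding genes over other genes. Shares were given 95% Wilson intervals, differences Newcombe intervals, and counts were compared by two-sided Fisher's exact test with Benjamini-Hochberg adjustment over 9 comparisons, in Python 3.11.15, pandas 2.3.3, scipy 1.17.1 and pysam 0.24.0. The test was checked on simulated data. A planned count of repeats was not run, since the lists name no repeats, and the mitochondrial genome, whose sequence differs between the references, was given no sequence.

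The members, the 12 gene lists and the tests were chosen with earlier results of these data known. Genes named are the 12 with most members (ties by members per intron length) and up to 4 per list (ties by symbol). Sequences are the longest purine run in the first 8 of those genes, members among the 5 longest runs, up to 6 with TAGGG and up to 5 exonic ones of list genes, except on chromosomes 8 and Y. A gene that this rule named is not reported here. Of these 5, the regions longer than 30 nt are not printed. Alternatives were the listed start, other overlap and exclusion rules, each library left out, each replicate number on its own (added after the data had been seen), HOMER's annotation, and other thresholds.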

Additional observations from a re-analysis of the deposited data

How the results depend on the processing

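The differences between members and shared regions in exons of protein-coding genes, in intergenic regions and within 5 kb of a listed start kept their direction and their side of the threshold under all alternatives run, but not their size. They ranged from -10.6 to -2.72, from 4.23 to 12.1 and from -12.5 to -7.31 points. The value of -7.31 is for the share within 2 kb, and at 5 kb the smallest difference was -8.53 points (without A1dm replicate 2). Leaving out each library in turn gave 2572 to 7057 members, or 2572 to 2804 when the library was of A1-HMW or A1dm. Without an A1 library the other one alone defines the regions, which gave 7057 without replicate 1 and 4871 without replicate 2, and the numbers in DTNA, ERC2, AUTS2, CAMTA1 and RAD51B then also rose by over 1.5 times. With a library left out, the differences ranged from -1.71 to 2.31 points for introns, from 0.923 to 2.22 beyond 50 kb, from -4.70 to -2.06 for introns within 300 nt of an exon, from 0.00236 to 1.09 for runs of 12 purines, from -2.96 to 0.549 for GAGGAA and from -0.488 to 0.453 for TAGGG. The intronic difference turned to -1.71 and -0.520 points without A1 replicates 1 and 2, and GAGGAA turned to 0.549 without A1-HMW replicate 2. TAGGG turned to 0.00844 and 0.453 points without A1 replicates 1 and 2, to 0.279 without A1-HMW replicate 1, to 0.982 when only regions of both A1-HMW or both A1dm replicates excluded a region (3206 members), and to 0.814 with 10 nt added at both ends. None of these reversals passed the threshold. Differences that newly passed it were 7.44 points for introns with intergenic regions left out, -6.85 within 1000 nt of an exon and 0.687 for runs of 12 purines with 10 nt added. They also included 2.09 and 2.22 points beyond 50 kb and -4.70 and -3.32 within 300 nt of an exon without A1 replicates 1 and 2, -4.63 for the latter without A1dm replicate 2, and 1.07 for runs of 12 purines without A1-HMW replicate 2. The cause was not tested. Of 144 alternative values, 113 kept their direction and side of the threshold or, for numbers of members, stayed within 1.5 times. With the replicate number as a block, added after the data had been seen, A1 regions of a number were set against A1-HMW and A1dm of that number, which gave 5333 members in number 1 and 7388 in number 2. The labels do not say that a number marks a shared batch. Within numbers 1 and 2, the differences were -7.93 and -7.75 points for exons, 10.1 and 9.61 for intergenic regions, -10.2 and -9.43 within 5 kb and 2.64 and 2.61 beyond 50 kb, all past the threshold. They were -0.540 and -1.13 for introns and 0.312 and 0.174 for TAGGG, none past it. Within 300 nt of an exon they were -2.30 and -5.33, for runs of 12 purines 1.90 and 0.171 and for GAGGAA 0.802 and -4.77, past the threshold in number 2, number 1 and number 2. Settings for repeats were not run, since repeats are not listed. Without read numbers in the lists used here, a region missing from a short list cannot be told apart from one with too few reads.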
